A study of Mus musculus with 4 samples.

Results

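The genes described here encode the integrins, the laminin chains, the nidogens, perlecan and the syndecans, the proteins with which cells hold on to the extracellular matrix and to basement membranes. They were chosen by gene symbol, as every integrin alpha or beta subunit and laminin chain named on the array plus Nid1, Nid2, Hspg2 and Sdc1 to Sdc4, with the probe set of the highest mean representing each gene. This gave 42 of 22180 genes: 17 integrin alpha subunits, 8 integrin beta subunits, 10 laminin chains, 3 nidogen and perlecan genes and 4 syndecans. RNA came from mesenchymal stem cells derived from mouse bone marrow, the adherent stromal cells of the marrow. The 4 groups, with 1 Affymetrix array each, were Snail1-KO cells given TGF-b1 for 2 h, untreated Snail1-KO cells, Snail1-WT cells given TGF-b1 for 2 h and untreated Snail1-WT cells. Snail1 is a zinc finger repressor of transcription. The sources used here do not give how it was inactivated, the dose of TGF-b1, the strain and age of the animals, or whether arrays of 1 genotype came from separate cultures.

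Integrins are pairs of 1 alpha and 1 beta subunit that span the membrane, bind matrix proteins outside and connect through talin, kindlin and tensin to actin inside. The beta subunit β1 pairs with many alpha subunits, while β3, β5, β6 and β8 pair with αv to bind proteins that carry an arginine-glycine-aspartate motif, among them vitronectin and, for some pairs, the latent form of TGF-b. Laminins are trimers of an alpha, a beta and a gamma chain that polymerise into basement membranes, where nidogens and perlecan tie them to type IV collagen. Syndecans are membrane proteoglycans that bind matrix with their heparan sulphate chains and act beside integrins. TGF-b1 signals through SMAD proteins and is known in fibroblasts for raising matrix genes and several integrins.

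All values are RMA log2 values deposited by the authors, so a difference of 1 is 2-fold. With 1 array per group there is no test and no replicate check, and differences are described by their size. A difference was counted when it was at least 1.5-fold (0.58 on the log2 scale, so a value printed as 0.58 can lie on either side). As a measure of error, an expected SD was set for each gene's difference between 2 arrays, from how far the TGF-b1 responses of the genotypes differed among the 500 genes nearest in level. It was between 0.08 and 0.27 for the members, smallest for the brightest probe sets. True differences between the responses enlarge it, and it leaves out whatever both arrays of a genotype or both arrays of a treatment share. Whether it holds any spread between cultures is unknown, because the sources do not say if the arrays of 1 genotype came from separate cultures. The targeted gene Snai1 measured 5.34 in treated and 5.09 in untreated Snail1-KO cells, against 7.63 in treated and 6.69 in untreated Snail1-WT cells, in the direction of the labels in both pairs. Array medians over all probe sets were between 4.58 and 4.63. Of the 42 members, 31 were among the 60% of genes with the highest means (at least 4.51), and the other 11 are near background. That limit lies below the array medians, so passing it does not show that a gene was expressed. Some members that passed were also dim, among them Itga7, Itgb7 and Itgb8. Their means were 5.19, 5.15 and 5.29, with expected SDs of 0.20, 0.20 and 0.25.

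The promoters of members that differed in the same direction in both pairs of a comparison are shown first, because Snail and SMAD proteins bind short DNA motifs that can be looked for in them. Of 7 such members (Itga5, Itga6, Itga11, Itgb3, Itgb5, Nid2 and Sdc4), RefSeq windows from 250 bases before to 50 bases after the gene start were at hand for 4, all in build GRCm38.p6 and written 5′ to 3′ on the strand of the gene. They lie at chr9:62677605-62677904 on the plus strand (Itga11), chr15:103366742-103367041 on the minus strand (Itga5), chr16:33829415-33829714 on the plus strand (Itgb5) and chr2:164443139-164443438 on the minus strand (Sdc4). Capitals mark CAGAC, the motif bound by SMAD proteins, and CAGGTG, the E-box bound by Snail proteins, on either strand.
Itga11: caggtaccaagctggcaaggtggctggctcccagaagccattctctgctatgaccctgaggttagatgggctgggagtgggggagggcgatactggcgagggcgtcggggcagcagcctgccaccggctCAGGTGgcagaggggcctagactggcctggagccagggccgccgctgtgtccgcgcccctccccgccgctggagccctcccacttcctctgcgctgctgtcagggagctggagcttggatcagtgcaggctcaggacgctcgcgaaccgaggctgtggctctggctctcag
Itga5: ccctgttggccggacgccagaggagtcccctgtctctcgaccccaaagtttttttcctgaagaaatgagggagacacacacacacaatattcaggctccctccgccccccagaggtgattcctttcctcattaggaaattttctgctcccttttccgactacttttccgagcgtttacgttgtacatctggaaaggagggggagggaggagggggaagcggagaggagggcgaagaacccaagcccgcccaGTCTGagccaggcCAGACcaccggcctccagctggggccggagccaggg
Itgb5: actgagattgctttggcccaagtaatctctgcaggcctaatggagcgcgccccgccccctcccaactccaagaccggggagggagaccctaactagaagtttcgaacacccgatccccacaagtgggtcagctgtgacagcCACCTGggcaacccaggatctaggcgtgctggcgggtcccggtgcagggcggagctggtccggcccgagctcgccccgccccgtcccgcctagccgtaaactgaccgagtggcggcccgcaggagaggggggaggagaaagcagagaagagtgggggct
Sdc4: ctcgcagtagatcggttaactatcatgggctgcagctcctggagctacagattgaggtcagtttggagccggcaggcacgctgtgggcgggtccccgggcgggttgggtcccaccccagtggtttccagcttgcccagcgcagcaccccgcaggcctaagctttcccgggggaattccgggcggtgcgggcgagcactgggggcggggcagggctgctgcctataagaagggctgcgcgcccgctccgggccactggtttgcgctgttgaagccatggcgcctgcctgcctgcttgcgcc

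Itga11 held CAGGTG at positions -121 to -116 from its start, and Itgb5 held it on the other strand at positions -109 to -104. Itga5 held CAGAC on both strands, at positions 2 to 6 and 15 to 19. No match of either motif, of the AP-1 motif TGANTCA or of the TEAD motif GGAATG was in the Sdc4 window, and neither of the last pair was in the other windows. No marked matches overlap. Among all 32851 windows of this length in the table, 49.6% held CAGAC, 20.2% held CAGGTG, 7.81% held TGANTCA and 14.7% held GGAATG. The windows were rich in G and C, at 68.0% for Itga11, 58.7% for Itga5, 65.7% for Itgb5 and 67.7% for Sdc4, against a median of 52.7% over all windows.

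Marker genes of the labelled cell type and of other cell types were examined first. Of 9 measured mesenchymal stem cell markers 7 were among the upper 60% of genes, with the PDGF receptor gene Pdgfrb at 11.35 in treated and 10.66 in untreated Snail1-KO cells, against 11.59 in treated and 10.96 in untreated Snail1-WT cells. Nt5e, at 4.23 to 4.62, and Lepr, at 2.86 to 3.20, were below that limit, and Thy1 was at 5.19 to 5.67. Among leukocyte markers, 5 of 9 passed that limit, with Cd68 at 6.05 to 6.23 and Cd14 at 5.53 to 6.59. The pan-leukocyte gene Ptprc did not, at 3.15 to 3.78 on the 4 arrays. The summed signal of the leukocyte markers, as a log2 value, was 8.04 in treated and 8.33 in untreated Snail1-KO cells, against 8.06 in treated and 8.13 in untreated Snail1-WT cells. Platelet (1 of 3), endothelial (3 of 6) and epithelial markers (3 of 5) had no probe set above 5.63, and no marker was at 0. All 6 smooth muscle and pericyte markers passed, with the smooth muscle actin gene Acta2 at 11.70 to 11.84, but Myh11 at 5.27 to 5.54 and Rgs5 at 4.21 to 4.88. So did 3 of 3 measured Schwann and neural markers, with Ncam1 at 9.19 to 9.62 and Sox10 and S100b at 5.13 or less on all arrays. Since these are bulk samples, fewer cells of a type and less RNA per cell cannot be told apart.

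After 2 h of TGF-b1, 4 integrin genes were at least 1.5-fold higher in both genotypes: Itgb3, Itga11, Itga5 and Itgb5. They encode the β3 and β5 partners of αv, the collagen receptor subunit α11 of fibroblast-like cells and α5, the fibronectin receptor subunit. No member was at least 1.5-fold lower in either genotype. Of all 22180 genes, 2.97% were at least 1.5-fold higher in Snail1-KO cells given TGF-b1 and 2.26% lower, and in Snail1-WT cells 2.3% were higher and 1.86% lower, against 4 of 42 members (9.52%) higher and 0 lower in each genotype. The responses share no array, and 1.17% of all genes were higher and 0.487% lower in both, against 4 members higher and 0 lower. The members were chosen with earlier results of these data known, so their shares here and below are descriptions only.

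Itgb3 measured 7.93 in Snail1-KO cells after TGF-b1 and 5.92 in untreated Snail1-KO cells. In Snail1-WT cells it measured 6.35 after TGF-b1 and 5.07 untreated. Both treated arrays were above both untreated arrays, and within each treatment the Snail1-KO array was the higher one. The response was 2.02 in Snail1-KO cells, a 4.05-fold difference, and 1.28 in Snail1-WT cells, a 2.42-fold difference, with an expected SD of 0.17.

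Itga11 had values of 8.33 in treated and 6.31 in untreated Snail1-KO cells. The values in Snail1-WT cells were 8.19 treated and 6.93 untreated. The untreated Snail1-KO array was the lowest of the 4, while the treated arrays were close to each other. The response was 2.01 in Snail1-KO cells and 1.26 in Snail1-WT cells, with an expected SD of 0.13.

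Itga5 reached 10.80 in treated Snail1-KO cells, against 9.64 in untreated ones, and 10.94 in treated Snail1-WT cells, against 10.01 in untreated ones. Its responses were 1.17 in Snail1-KO and 0.93 in Snail1-WT cells, with an expected SD of 0.08. Itgb5 measured 10.38 in treated and 9.52 in untreated Snail1-KO cells, and 9.93 in treated and 9.23 in untreated Snail1-WT cells. Its responses were 0.86 in Snail1-KO and 0.70 in Snail1-WT cells, again with an expected SD of 0.08. For both genes the treated arrays were higher than either untreated array.

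The known partners of these subunits had smaller responses. Itgav, the αv subunit with which β3 and β5 pair, measured 10.40 in treated and 9.91 in untreated Snail1-KO cells, and 10.63 in treated and 10.22 in untreated Snail1-WT cells. Its responses were 0.48 in Snail1-KO cells and 0.41 in Snail1-WT cells, below 1.5-fold but 5.85 and 4.99 times the expected SD. A second, dim probe set of Itgav gave 0.997 in Snail1-KO and 0.01 in Snail1-WT cells, and the mean of both probe sets was beyond 1.5-fold in Snail1-KO cells. Itgb1, the partner of α5 and α11, was nearly level across the arrays, at 10.31 in treated and 10.23 in untreated Snail1-KO cells and 10.32 in treated and 10.22 in untreated Snail1-WT cells. Its responses were 0.07 in Snail1-KO and 0.10 in Snail1-WT cells.

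**Figure D1:**
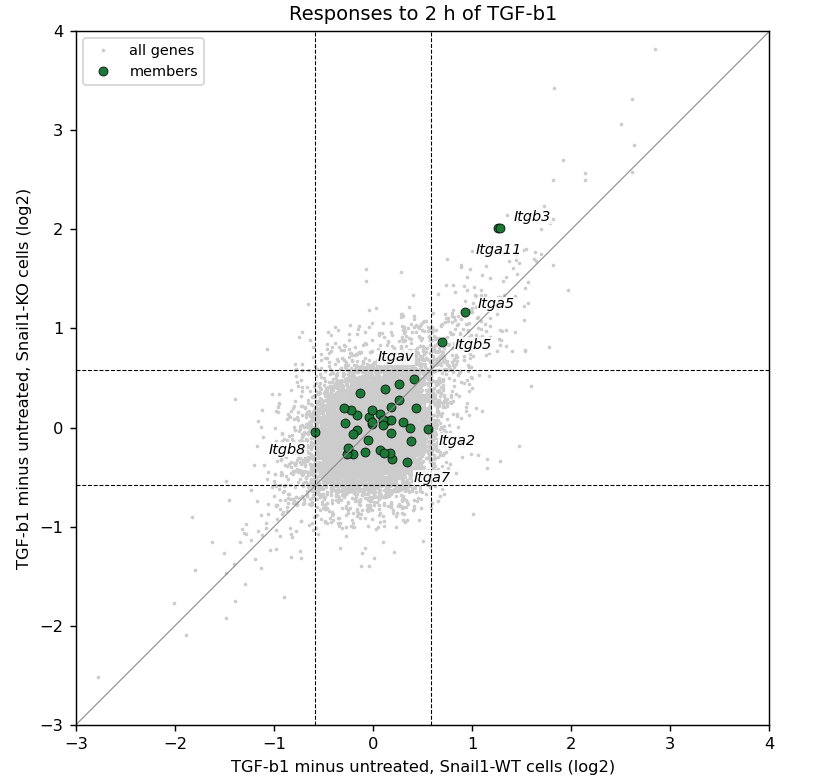
Response of each gene to 2 h of TGF-b1 (treated minus untreated, log2) in Snail1-WT cells on the horizontal axis and in Snail1-KO cells on the vertical axis, 1 array per group; grey points are all 22180 genes, green points the 42 members, dashed lines 1.5-fold and the diagonal equal responses. Itgb3, Itga11, Itga5 and Itgb5 lie beyond 1.5-fold in both genotypes and above the diagonal, and every other member lies inside the dashed lines.

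Among the laminin genes the responses were small. Lamc1, whose γ1 chain is part of most laminins, had responses of 0.44 in Snail1-KO and 0.26 in Snail1-WT cells (expected SD 0.08), and Lamb1, the β1 chain gene, had 0.28 in Snail1-KO and 0.27 in Snail1-WT cells (expected SD 0.08). For Lama4, an alpha chain gene of mesenchymal and endothelial cells, they were -0.07 in Snail1-KO and -0.21 in Snail1-WT cells. Lamb2, the β2 chain gene, had a response of 0.17 in Snail1-KO cells and -0.22 in Snail1-WT cells. The nidogen genes and Hspg2, which encodes perlecan, had responses between -0.13 and 0.07 in Snail1-KO cells and between -0.05 and 0.13 in Snail1-WT cells. Of the syndecan genes, Sdc3 had 0.20 in Snail1-KO and 0.43 in Snail1-WT cells. Sdc4 had 0.21 in Snail1-KO and 0.18 in Snail1-WT cells, and Sdc2 had -0.21 in Snail1-KO and -0.25 in Snail1-WT cells.

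Itgb8, whose product pairs with αv and binds latent TGF-b, lay just inside the limit in Snail1-WT cells. It measured 5.45 in treated and 5.49 in untreated Snail1-KO cells, and 4.83 in treated and 5.41 in untreated Snail1-WT cells. The treated Snail1-WT array was the lowest of the 4. Its response was -0.05 in Snail1-KO cells and -0.58 in Snail1-WT cells, with an expected SD of 0.25, and with arrays centred on their medians or after cyclic loess it was at least 1.5-fold lower in Snail1-WT cells.

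Over all 42 members the median response was 0.06 in Snail1-KO cells and 0.10 in Snail1-WT cells, against -0.02 in Snail1-KO and -0.01 in Snail1-WT cells over all genes. In each genotype 25 members were above 0 and 17 below. Of all genes, 10315 were above 0 and 11865 below in Snail1-KO cells, and 10832 above and 11348 below in Snail1-WT cells.

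The responses were set against each other as Snail1-KO minus Snail1-WT. The difference was 0.76 for Itga11 and 0.74 for Itgb3, with expected SDs of 0.19 and 0.24 for a difference of this kind. For Itga11 it went with a lower untreated level in Snail1-KO cells and similar treated levels, and for Itgb3 with higher levels in Snail1-KO cells in both states. Itga7 went the other way at -0.68 (expected SD 0.29). These were 2 members higher and 1 lower by at least 1.5-fold, while 3.2% of all genes were higher and 4.05% lower. Since 44.2% of the genes so counted were higher, and 55.1% with arrays centred on their medians, the balance of directions moved with the scaling. For Lamb2 the difference was 0.40, which is 3.12 times its expected SD of 0.13, and for Itga5 and Itgb5 it was 0.24 and 0.16, or 2.03 and 1.45 times theirs.

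Between the genotypes, the laminin receptor subunit gene Itga6 and Itgb3 were higher in Snail1-KO cells in both pairs, and the nidogen gene Nid2 and the syndecan gene Sdc4 were lower in both. The pairs share no array, but genotype and any other difference between the populations the arrays came from cannot be told apart. Of all genes, 1.68% were higher and 1.1% lower in both pairs, against 2 members (4.76%) in each direction. With TGF-b1, 4 members were higher and 3 lower in Snail1-KO cells, with 4.06% of all genes higher and 2.9% lower. Without it, 3 members were higher and 4 lower, with 3.48% of all genes higher and 2.65% lower. Among genes at least 1.5-fold apart with TGF-b1, 58.3% were higher in Snail1-KO cells, and 70.3% with arrays centred on their medians.

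Nid2, which encodes the nidogen that links laminin to type IV collagen alongside its paralog, had the lowest genotype difference of the members in both pairs. It measured 6.14 in treated and 6.27 in untreated Snail1-KO cells, against 7.26 in treated and 7.31 in untreated Snail1-WT cells. Each Snail1-KO array was below each Snail1-WT array, and the response was -0.13 in Snail1-KO and -0.05 in Snail1-WT cells. Snail1-KO minus Snail1-WT was -1.12 with and -1.04 without TGF-b1, with an expected SD of 0.15. The paralog Nid1 was also below its Snail1-WT values, by less, at 11.97 in treated and 11.91 in untreated Snail1-KO cells, against 12.34 in treated and 12.36 in untreated Snail1-WT cells. Its differences were -0.37 with and -0.44 without TGF-b1, and a second probe set gave -0.36 with and -0.47 without it. Hspg2 differed by -0.15 with and -0.09 without TGF-b1.

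Sdc4, the syndecan found in focal adhesions, measured 7.97 in treated and 7.76 in untreated Snail1-KO cells, against 8.58 in treated and 8.39 in untreated Snail1-WT cells. The groups of the genotypes did not overlap. The difference was -0.61 with and -0.63 without TGF-b1 (expected SD 0.10), just beyond 1.5-fold, and the treated pair was inside the limit with arrays centred on their medians. Of the 4 promoter windows shown, only that of Sdc4 had no match to any of the 4 motifs. The other windows were of genes higher after TGF-b1 in both genotypes. No window was at hand for Itga6, Itgb3 or Nid2, the other members that differed between genotypes in both pairs. The syndecan gene Sdc1 measured 6.26 in treated and 6.53 in untreated Snail1-KO cells, against 6.88 in treated and 6.77 in untreated Snail1-WT cells. Its differences were -0.62 with and -0.25 without TGF-b1 (expected SD 0.16). A dimmer probe set of Sdc1 gave -0.48 with and -0.49 without it, and with the mean of both the treated pair was inside 1.5-fold. Sdc2, known as the syndecan of mesenchymal cells, was on the other side at 0.49 with and 0.44 without TGF-b1 (expected SD 0.08). Sdc3 differed by 0.16 with and 0.39 without TGF-b1. The syndecans lay on both sides, with 2 of 4 genes above 0 and 2 below in both pairs.

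Itga6 measured 7.23 in treated and 6.84 in untreated Snail1-KO cells, against 6.31 in treated and 6.20 in untreated Snail1-WT cells. Both Snail1-KO arrays were above both Snail1-WT arrays. The differences were 0.92 with and 0.65 without TGF-b1, with an expected SD of 0.16. Itgb3, described above, differed by 1.59 with TGF-b1, a 3.003-fold difference, and by 0.85 without it. Its untreated Snail1-KO value of 5.92 was below the treated Snail1-WT value of 6.35, so its genotype difference was seen only within a treatment.

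**Figure D2:**
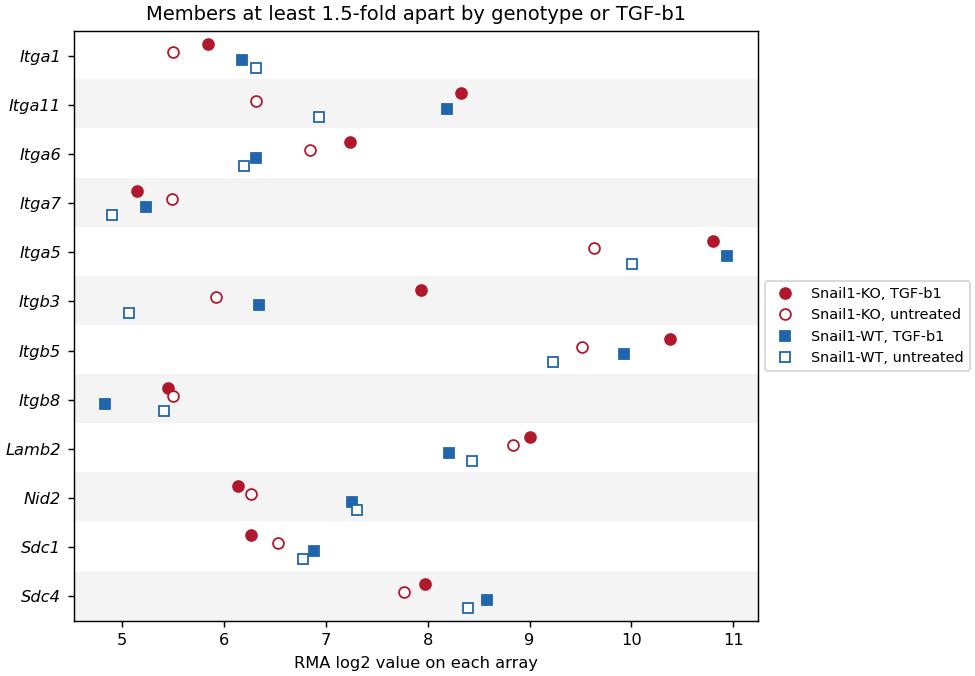
RMA log2 values of the 12 members at least 1.5-fold apart between genotypes at the same treatment or after TGF-b1 within a genotype; each symbol is 1 array, with Snail1-KO cells as red circles and Snail1-WT cells as blue squares, filled after 2 h of TGF-b1 and open without it. Nid2 and Sdc4 lie lower and Itga6 higher on both Snail1-KO arrays, while Itga11, Itga5, Itgb3 and Itgb5 lie higher on the treated arrays.

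Other laminin-binding and collagen-binding subunits differed in 1 pair only. The collagen receptor subunit gene Itga1 measured 5.84 in treated and 5.49 in untreated Snail1-KO cells, against 6.18 in treated and 6.31 in untreated Snail1-WT cells. It was lower on both Snail1-KO arrays, with differences of -0.34 with and -0.82 without TGF-b1 (expected SD 0.17). Itga11 differed by 0.14 with TGF-b1 and by -0.62 without it (expected SD 0.13), the untreated pair only being beyond 1.5-fold.

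Itga7, a laminin receptor subunit best known from muscle, measured 5.15 in treated and 5.49 in untreated Snail1-KO cells, against 5.24 in treated and 4.90 in untreated Snail1-WT cells, values that overlap between genotypes. Its differences of -0.09 with and 0.59 without TGF-b1 had an expected SD of 0.20, and the untreated pair was inside 1.5-fold after cyclic loess. Itga3, the third laminin-binding subunit gene, was lower by less, at -0.16 with and -0.49 without TGF-b1 (expected SD 0.11). The untreated Snail1-WT array, at 8.25, was its highest, and the treated one was at 7.96, against 7.81 treated and 7.76 untreated in Snail1-KO cells.

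Of the 8 beta subunit genes, 5 were above 0 with TGF-b1 and 8 without it, from 0.01 for Itgb1 to 0.85 for Itgb3, while 10531 of 22180 genes were above 0 with and 11249 without TGF-b1. Without TGF-b1 the differences of Itgb1, Itgb2, Itgb4, Itgb6 and Itgb8 were below their expected SD. Itgb3 and Itgb8 were at least 1.5-fold higher with TGF-b1, and Itgb3 without it. Itgb8 differed by 0.62 with and 0.08 without TGF-b1 (expected SD 0.25). Itgb5 was higher by 0.45 with and 0.29 without TGF-b1 (expected SD 0.08). Itgb7, a leukocyte integrin gene, measured 5.30 in treated and 5.57 in untreated Snail1-KO cells, against 4.74 in treated and 5.001 in untreated Snail1-WT cells. Its differences of 0.56 with and 0.57 without TGF-b1 (expected SD 0.20) lay just inside 1.5-fold, and the treated pair was beyond it with centred arrays and after cyclic loess. The 9 leukocyte markers had median genotype differences of -0.20 with and 0.25 without TGF-b1. With it 2 of them were above 0 and 7 below, and without it 7 were above and 2 below. Cd14 was higher in Snail1-KO cells by 0.59 with and 0.42 without TGF-b1. The part of these markers in the values of Itgb7 was not tested.

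The laminin chains showed 1 difference beyond 1.5-fold. Lamb2 measured 9.01 in treated and 8.84 in untreated Snail1-KO cells, against 8.21 in treated and 8.43 in untreated Snail1-WT cells. Both Snail1-KO arrays were the higher ones, with differences of 0.80 with and 0.40 without TGF-b1 (expected SD 0.09). Its paralog Lamb1 lay the other way at -0.38 with and -0.39 without TGF-b1 (expected SD 0.08), with 9.78 in treated and 9.51 in untreated Snail1-KO cells, against 10.16 in treated and 9.89 in untreated Snail1-WT cells. Lama4 was higher by 0.35 with and 0.21 without TGF-b1 (expected SD 0.08), and Lamc1 by 0.23 with and 0.05 without it. The other 6 laminin genes had means of 5.03 or less, and their differences lay between -0.51 and 0.45 in both pairs.

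**Figure D3:**
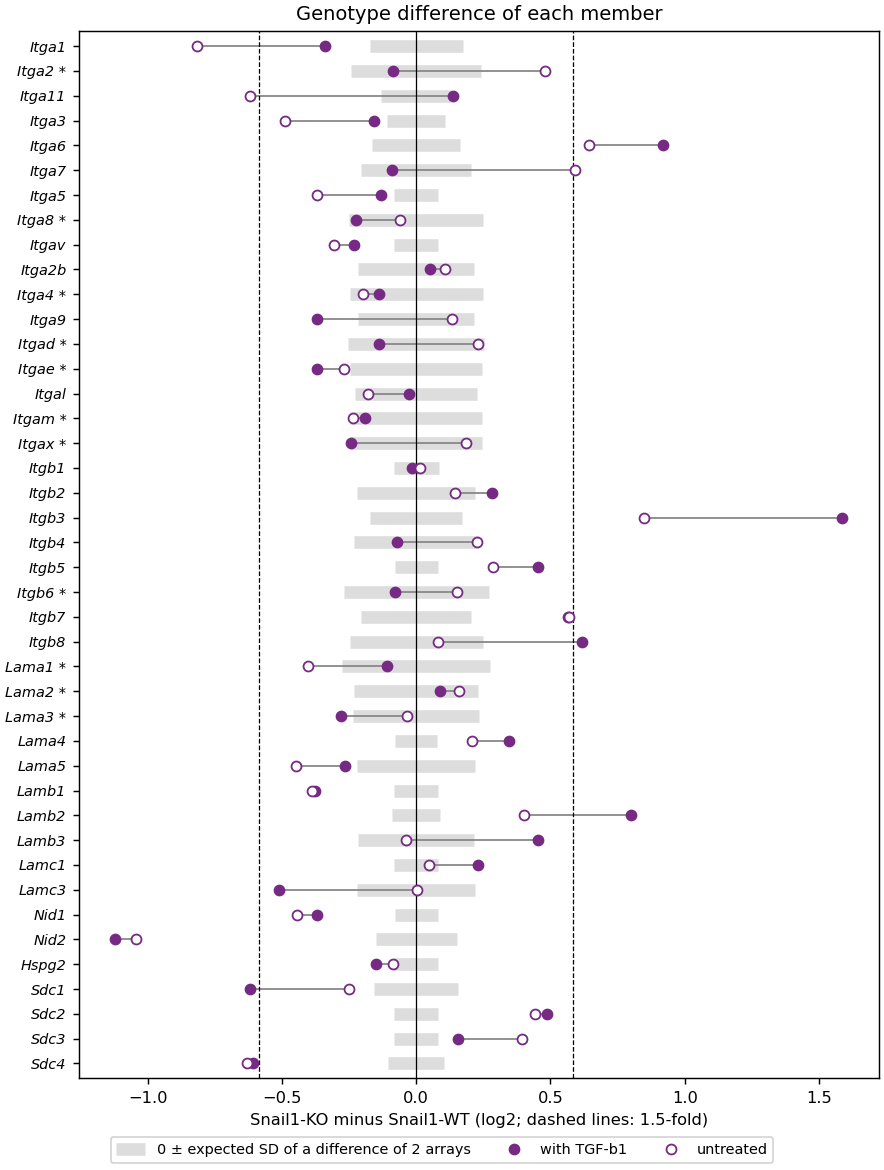
Snail1-KO minus Snail1-WT (log2) of the 42 members, filled with and open without TGF-b1, 1 array per group; the grey bar is 0 ± the expected SD of a difference between 2 arrays, dashed lines mark 1.5-fold, and an asterisk marks the 11 members near background. Nid2 and Sdc4 lie beyond the left line and Itga6 and Itgb3 beyond the right line in both pairs.

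Over all 42 members the median genotype difference was -0.10 with TGF-b1 and 0.01 without it, against -0.02 with and 0.01 without it over all genes. With TGF-b1 15 members were above 0 and 27 below, beside 10531 of all genes above and 11649 below. Of the 11 members near background, 1 was above 0 and 10 were below. The other 31 had 14 above and 17 below, with a median of -0.03. Without TGF-b1 22 members were above 0 and 20 below, beside 11249 of all genes above and 10931 below. Members of the same family took opposite directions, as Lamb2 and Lamb1 or Sdc2 and Sdc4 did. Of the 9 mesenchymal stem cell markers, 0 were 1.5-fold apart between genotypes in either pair, with medians of -0.24 with and -0.26 without TGF-b1. That count is near the shares of all genes, 4.06% higher and 2.9% lower with TGF-b1, and 3.48% higher and 2.65% lower without it. The 6 smooth muscle and pericyte markers had medians of 0.06 with and 0.15 without TGF-b1. Among them Cnn1 differed by -0.76 with and -0.90 without it, Rgs5 by 0.08 with and 0.67 without it, and the other 4 by less than 1.5-fold. Rgs5 was dim, with a mean of 4.59 and an expected SD of 0.23. Their part in the members' differences was not tested.

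The brightest probe sets by mean were those of Nid1, Itga5, Itgav, Itgb1, Lamc1 and Sdc2, with means from 9.88 to 12.15, which does not rank their mRNA amounts because probe sets differ in affinity. At the other end, the 11 members near background had values between 3.42 and 4.61 on all arrays. They were Itga2, Itga4, Itga8, the leukocyte subunit genes Itgad, Itgae, Itgam and Itgax, the epithelial subunit gene Itgb6, and 3 laminin alpha chain genes. None of them was at least 1.5-fold apart in those comparisons, and their differences ranged from -0.37 to 0.09 between genotypes with TGF-b1 and from -0.40 to 0.48 without it. The remaining leukocyte alpha subunit gene, Itgal, was at 4.55 to 4.73, and Itgb2, the beta subunit common to leukocytes, at 4.85 to 5.16. Itga2b, the platelet subunit gene, was at 4.90 to 5.21. In all, 30 members were not 1.5-fold apart in any of the 4 comparisons. The share of all genes over the 4 comparisons together was not counted. Neither this count nor that of the 11 members near background can therefore be set against it.

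Genes around the integrins were examined by 4 further lists. The lists were chosen with earlier results of these data known. Their counts beside the shares of all genes are therefore descriptions, and an excess cannot be told apart from that choice. Of 18 measured integrin adaptor and focal adhesion genes, 2 were at least 1.5-fold higher after TGF-b1 in Snail1-KO cells and 2 in Snail1-WT cells. Of all genes, 2.97% were higher in Snail1-KO and 2.3% in Snail1-WT cells. None of the list was lower, which is near the shares of all genes, 2.26% lower in Snail1-KO and 1.86% in Snail1-WT cells. Tns1, encoding a tensin that binds beta subunit tails, measured 8.39 in treated and 7.40 in untreated Snail1-KO cells, and 8.42 in treated and 7.09 in untreated Snail1-WT cells, with responses of 0.99 in Snail1-KO and 1.34 in Snail1-WT cells. Bcar1, the gene of the docking protein p130Cas, had a response of 0.87 in Snail1-KO cells and 0.27 in Snail1-WT cells. Tns3, a second tensin gene, had 0.46 in Snail1-KO and 0.59 in Snail1-WT cells. The medians of the list were 0.20 in both genotypes, against -0.02 in Snail1-KO and -0.01 in Snail1-WT cells over all genes. Between genotypes, 1 gene of the list was higher and none lower in each pair. These counts are near the shares of all genes, 4.06% higher and 2.9% lower with TGF-b1, and 3.48% higher and 2.65% lower without it. The gene was Ptk2b, encoding the focal adhesion kinase relative PYK2. It measured 6.90 in treated and 6.45 in untreated Snail1-KO cells, against 5.51 in treated and 5.23 in untreated Snail1-WT cells. The differences were 1.39 with and 1.22 without TGF-b1 (expected SD 0.18).

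Among 8 genes of latent TGF-b and its binding proteins, 3 were at least 1.5-fold higher after TGF-b1 in Snail1-KO cells, against 2.97% of all genes, and 2 in Snail1-WT cells, against 2.3%, with medians of 0.27 in Snail1-KO and 0.33 in Snail1-WT cells. Ltbp2 had responses of 1.28 in Snail1-KO and 1.13 in Snail1-WT cells, and Ltbp3 had 0.66 in Snail1-KO and 0.57 in Snail1-WT cells. Tgfb3 measured 9.58 in treated and 7.79 in untreated Snail1-KO cells, and 9.30 in treated and 8.30 in untreated Snail1-WT cells. As for Itga11, its untreated Snail1-KO value was the lowest of the 4 and its response was the larger in Snail1-KO cells, at 1.79, against 0.999 in Snail1-WT cells. None of the 8 was 1.5-fold apart between genotypes, which is near the shares of all genes. These were 4.06% higher and 2.9% lower with TGF-b1, and 3.48% higher and 2.65% lower without it.

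Other basement membrane genes did not differ by 1.5-fold after TGF-b1 in either genotype (0 of 17). The medians of the list were 0.05 in Snail1-KO and 0.12 in Snail1-WT cells. A count of 0 of 17 is near the shares of all genes, so it does not set this list apart. For Snail1-KO cells those shares were 2.97% up and 2.26% down after TGF-b1. For Snail1-WT cells they were 2.3% up and 1.86% down. Between genotypes, Npnt, which encodes the α8β1 ligand nephronectin, differed by -1.43 with and -1.36 without TGF-b1 (expected SD 0.19). It measured 5.02 in treated and 4.96 in untreated Snail1-KO cells, against 6.45 in treated and 6.32 in untreated Snail1-WT cells. Its receptor subunit gene Itga8 was near background on all 4 arrays, at 3.95 to 4.26. Ntn4, a netrin gene whose product binds laminin, differed by -0.52 with and -0.65 without TGF-b1, and the type XVIII collagen gene Col18a1 by 0.69 with and 0.79 without it. In the list 1 gene was higher and 1 lower with TGF-b1, and 1 higher and 2 lower without it, with medians of -0.01 with and 0.07 without TGF-b1. Of all genes, 4.06% were higher and 2.9% lower with TGF-b1, and 3.48% higher and 2.65% lower without it.

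Of 13 other integrin ligand genes, 3 were higher and 1 lower in Snail1-KO cells with TGF-b1, against 4.06% of all genes higher and 2.9% lower. Without it 3 were higher and 2 lower, against 3.48% of all genes higher and 2.65% lower. The medians of the list were 0.01 with and 0.03 without TGF-b1. Ecm1 was higher by 1.08 with and 1.14 without TGF-b1. The periostin gene Postn was higher by 1.07 with and 1.12 without it, and the type III collagen gene Col3a1 by 0.89 with and 0.71 without it. The tenascin gene Tnc, whose product binds α9β1 and αvβ3, differed by -1.28 with and -1.70 without TGF-b1, and the thrombospondin gene Thbs1 by -0.33 with and -0.75 without it. After TGF-b1, 2 of the 13 were higher in Snail1-KO cells and none in Snail1-WT cells (2.97% of all genes in Snail1-KO and 2.3% in Snail1-WT cells), with medians of 0.05 in Snail1-KO and 0.07 in Snail1-WT cells. These were Tnc, with responses of 0.78 in Snail1-KO and 0.37 in Snail1-WT cells, and Thbs1, with 0.76 in Snail1-KO and 0.34 in Snail1-WT cells. The fibronectin gene Fn1, whose product is the ligand of α5β1, had responses of 0.20 in Snail1-KO and 0.13 in Snail1-WT cells.

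**Figure D4:**
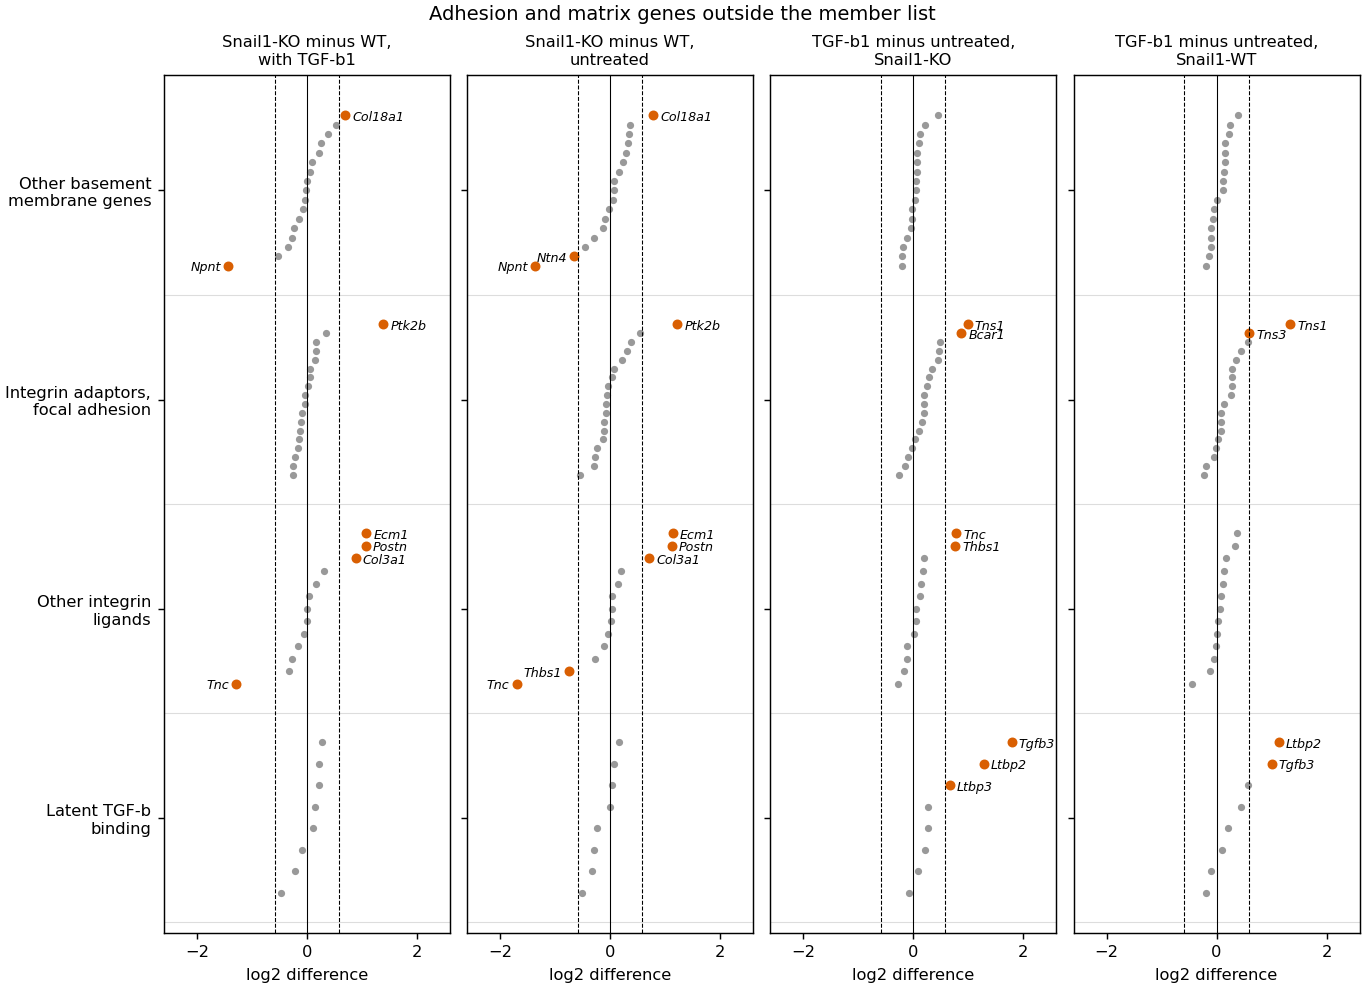
Log2 differences of the genes in 4 lists around the members, 1 panel per comparison and 1 point per gene sorted within its list; orange points with names are at least 1.5-fold apart (dashed lines) and grey points are not. Npnt and Tnc lie lowest and Ptk2b, Ecm1 and Postn highest between genotypes, and Tns1, Ltbp2 and Tgfb3 lie beyond 1.5-fold after TGF-b1 in both genotypes.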

How the data were processed

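RNA of 4 groups was hybridised to 1 Affymetrix array each after biotin labelling, per the labels' protocols. The authors deposited RMA log2 values. The submitters' processing notes name R 3.1.1. RMA equalises the distributions of the arrays, so a shift of most genes in one direction would be removed. The sources used here do not give the authors' build and annotation. The number of arrays limits the precision. Of 41345 probe sets, 23521 had 1 symbol in the platform annotation. All 45 probe sets of the members matched RefSeq (GRCm38.p6) by Entrez identifier with the same symbol. Genes were represented by their probe set with the highest mean, without a filter.

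Groups came from the labels. Differences were counted at 1.5-fold over all members and all 22180 genes. The expected SD is 1.4826 times the median absolute deviation of the difference of the responses among 500 neighbours, divided by the square root of 2. Named are members at least 1.5-fold apart between genotypes at the same treatment or after TGF-b1 within a genotype, the 6 brightest, others by role, and genes of 4 further lists by the same limit. Values of members and list genes inside the limit were added after they were seen. Members and lists were chosen with earlier results of these data known. Alternatives were a 2-fold limit, upper 60% or 40% of genes, median centring, cyclic loess (limma 3.58.1, R 4.3.3) and the mean of all probe sets. Code was tested on simulated data and used Python 3.11.15, matplotlib 3.10.9, pandas 2.3.3 and numpy 2.4.6.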

Additional observations from a re-analysis of the deposited data

How the results depend on the processing

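At 2-fold in place of 1.5-fold, 1 member (Itgb3) was higher and 1 (Nid2) lower in Snail1-KO cells with TGF-b1, 0 higher and 1 (Nid2) lower without it, 2 were higher after TGF-b1 in Snail1-WT cells, and 0 were higher and 0 lower in the difference of the responses. With arrays centred on their medians, 1 member (Nid2) was lower in Snail1-KO cells with TGF-b1, and 1 (Itgb8) was lower after TGF-b1 in Snail1-WT cells, as it was after cyclic loess. Over the upper 40% of genes, 0 members were lower in the difference of the responses, since Itga7 is not among them. With centred arrays only Nid2, and not Sdc4, was at least 1.5-fold lower in each genotype pair. Every other count in a single comparison was within 1.5 times under the alternatives run. The median genotype difference of the members without TGF-b1, near 0, was -0.17 over the upper 40% of genes. The values of the 12 named members moved by at most 0.05 with centred arrays, 0.03 after cyclic loess and 0.19 when all probe sets of a gene were averaged. Counts of 3 or 4 members between genotypes rest partly on values close to the limit (Itga7, Itga11, Itgb8, Sdc1 and Sdc4). No paired analysis was possible because each group has 1 array. The spread between cultures was not measured by itself, and whether the expected SD holds any of it is unknown.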
